A study of Homo sapiens with 4 samples.

Results

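The genes described here are 38 human genes of homologous recombination, the Fanconi anaemia pathway, mismatch repair and the DNA damage checkpoints, chosen by name out of 56809 genes in the deposited count table. All 38 had a row, and all passed the filter on low counts, which left 17885 genes in the test. The RNA-seq libraries, from poly(A) RNA, were of NCI-H929, an established multiple myeloma line that here expressed Cas9, a nuclease guided to its DNA target by a short RNA. The BCL7A knockout (KO) group comprised 2 libraries from cells given a doxycycline-inducible construct against BCL7A, a subunit of BAF chromatin remodelling complexes. The control group comprised 2 libraries from cells given a control construct per the labels' protocols, although the titles and genotype labels call these cells wild type. Cells of both groups carried Cas9, were selected with puromycin for 3 days and were then held in 0.5 ug/ml doxycycline during 24 h before RNA was isolated. The labels do not say whether both libraries of a group were separate cultures or whether the KO cells were 1 clone, so each p-value rests on a spread between libraries that may be technical.

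Double-strand breaks that arise during DNA replication are repaired from the sister chromatid by homologous recombination. The MRN complex senses the broken end, nucleases resect it, and BRCA1, PALB2 and BRCA2 load a recombinase that searches for the matching strand. The Fanconi proteins unhook crosslinks between DNA strands and hand the resulting breaks to the same machinery, while the kinases ATM and ATR signal damage to CHEK2 and CHEK1. Many of these genes are transcribed most strongly in S phase, and myeloma cells are known for replication stress and unstable genomes.

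Of the 38 repair genes, 22 rose and 8 fell in the KO libraries, while 8 did not pass the threshold, an adjusted p of 0.05 in edgeR's quasi-likelihood test over all genes. Among all 17885 tested genes 36.4% rose and 39.8% fell, so 76.2% of genes passed the threshold in these libraries. Levels are given as CPM, read counts relative to library size after scaling by TMM factors, which even out differences in RNA composition between libraries. Repair genes are mostly well expressed, and 34 of them averaged at least 10 CPM. Of these 34, 21 rose and 6 fell, against 54.2% and 31.7% of the 9537 tested genes at or above that level. The median log2 fold change, KO over control, was 0.17 over the 38 genes, -0.06 over all tested genes and 0.19 over tested genes of at least 10 CPM. The set's median thus lay close to that of other genes of its level, and single members ranged from -0.96 for RAD51D to 1.64 for CLSPN.

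The direction of small changes depended on the scaling, because upper-quartile factors moved the median gene by -0.13 on the log2 scale relative to TMM, and dividing by library size alone moved it by -0.28. With upper-quartile factors 17 of the 38 repair genes rose and 12 fell, where 5510 of all 17885 tested genes rose and 8110 fell. With library size alone 14 repair genes rose and 17 fell, where 4493 of all 17885 tested genes rose and 9346 fell. The repair genes' median then turned to -0.11. Taken as a raw share, the 38 genes held 0.227% and 0.230% of all gene counts in the KO libraries, against 0.236% and 0.229% in the control libraries, and these ranges overlap. Across all 15 alternative settings, 14 members were called higher throughout, against 24.0% of all tested genes. Of the 34 with at least 10 CPM 13 were (38.2%), against 37.4% of tested genes at that level. A further 7 were called lower throughout, against 27.4% of all tested genes. Of the 34, 6 were (17.6%), against 27.2% of tested genes at that level. The 14 were BRCA2, BRIP1, RAD51C, RAD54B, RAD50, NBN, RMI1, RMI2, FANCA, FANCM, ATR, CLSPN, CHEK1 and PARP1. The 7 were BRCA1, RAD51D, XRCC2, FANCB, FANCG, FANCD2 and TOPBP1.

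By size, CLSPN, FANCM and BRCA2, 3 of the 38, rose at least 2-fold, against 9.47% of all tested genes and 9.42% of those with at least 10 CPM. None of the 38 was at least 2-fold lower by edgeR, where 8 were called lower in all, although RAD51D came close and passed that size under 4 alternatives. The background for 2-fold lower was 23.5% of all tested genes and 8.86% of those with at least 10 CPM. In CPM, 23 members lay above control in both KO libraries, where 41.3% of all tested genes did. Another 12 lay below control in both, where 46.1% of all tested genes did, and for 3 (EXO1, BLM and FANCL) the groups overlapped. These 2 shares were not computed over tested genes with at least 10 CPM, the level of 34 of the 38 members. The counts are therefore not set against genes of like level.

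**Figure D1:**
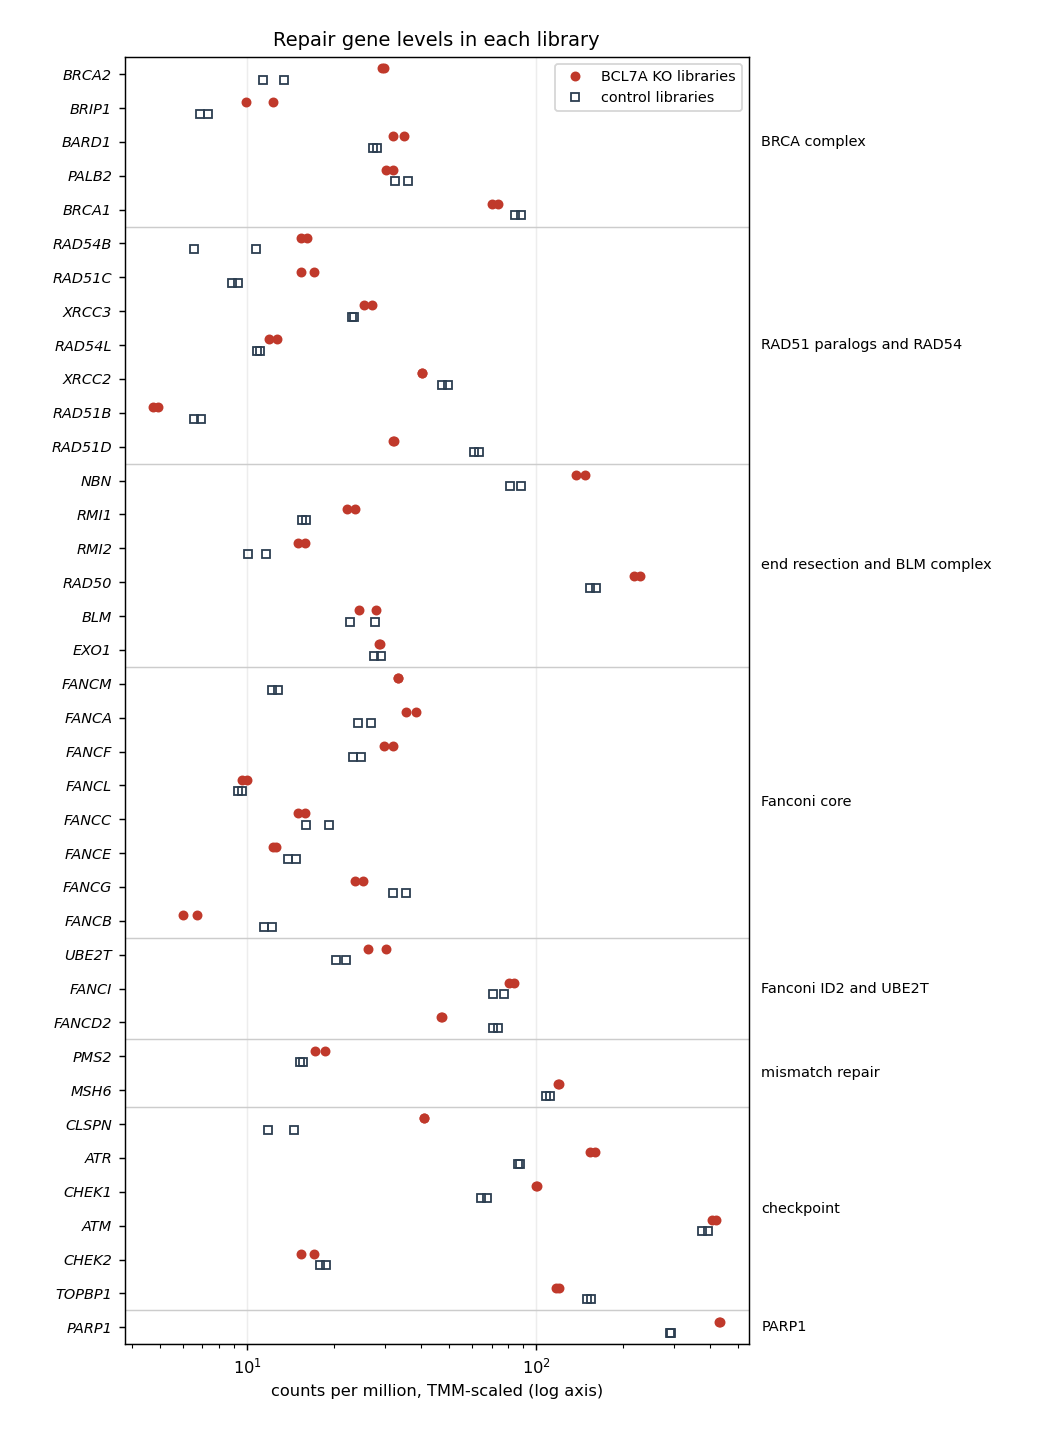
Level of each of the 38 repair genes in each library, in TMM-scaled CPM on a log axis, grouped by role; filled circles are the 2 BCL7A KO libraries and open squares the 2 control libraries. The 2 libraries of a group mostly lie close together, and CLSPN, FANCM and BRCA2 show the widest gaps to the right and RAD51D and FANCB to the left.

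**Figure D2:**
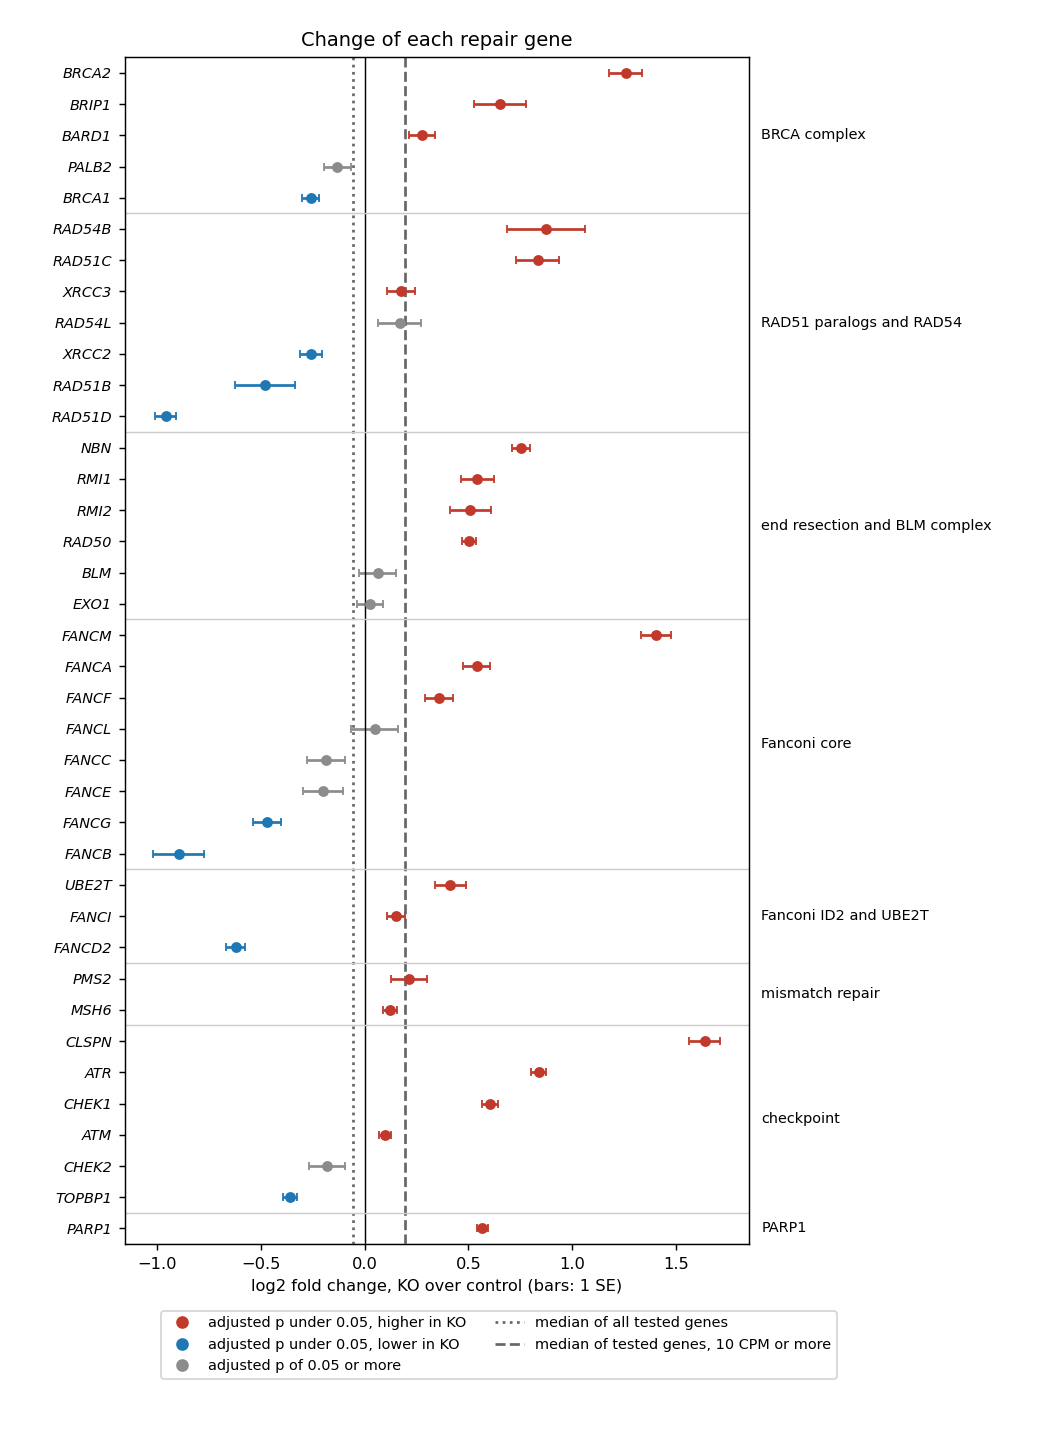
Log2 fold change, KO over control, of each repair gene with 1 SE, grouped by role, with the medians of all tested genes and of tested genes with at least 10 CPM as vertical lines. In 5 of the 8 role groups some members rose and others fell, and values ran from -0.96 to 1.64. With upper-quartile factors all points would lie 0.13 further left and with library size alone 0.28. In at least 1 of these scalings the small positive values of BARD1, XRCC3, RAD54L, EXO1, BLM, FANCL, FANCI, MSH6, PMS2 and ATM turn negative.

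The bases before the start sites of 4 members are shown because these include 2 that rose most and the 2 that fell most, and the CCAAT box, bound by the activator NF-Y, is a common element of cell cycle promoters. Each is the 250 bases before a RefSeq start on GRCh38.p14, read 5′ to 3′ on the gene's strand, with CCAAT or its reverse complement ATTGG in capitals. CLSPN lies at chr1:35769979-35770228 on the minus strand and FANCM at chr14:45135680-45135929 on the plus strand. RAD51D, shown at the outer of its 2 starts, lies at chr17:35119861-35120110 on the minus strand and FANCB at chrX:14873070-14873319 on the minus strand.
CLSPN: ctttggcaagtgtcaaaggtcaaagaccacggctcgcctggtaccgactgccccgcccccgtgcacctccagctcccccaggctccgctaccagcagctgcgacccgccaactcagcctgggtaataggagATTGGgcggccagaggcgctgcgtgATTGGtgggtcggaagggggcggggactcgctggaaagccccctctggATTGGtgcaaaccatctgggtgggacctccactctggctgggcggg
FANCM: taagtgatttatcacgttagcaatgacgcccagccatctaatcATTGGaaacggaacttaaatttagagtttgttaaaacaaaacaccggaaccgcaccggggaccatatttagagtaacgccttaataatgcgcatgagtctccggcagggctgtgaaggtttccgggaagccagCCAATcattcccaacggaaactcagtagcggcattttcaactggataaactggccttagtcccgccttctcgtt
RAD51D: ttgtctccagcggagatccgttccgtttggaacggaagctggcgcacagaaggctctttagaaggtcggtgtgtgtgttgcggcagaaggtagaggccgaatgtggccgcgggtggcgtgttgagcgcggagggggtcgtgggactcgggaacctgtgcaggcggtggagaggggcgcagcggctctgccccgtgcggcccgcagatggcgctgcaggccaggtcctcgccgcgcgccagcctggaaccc
FANCB: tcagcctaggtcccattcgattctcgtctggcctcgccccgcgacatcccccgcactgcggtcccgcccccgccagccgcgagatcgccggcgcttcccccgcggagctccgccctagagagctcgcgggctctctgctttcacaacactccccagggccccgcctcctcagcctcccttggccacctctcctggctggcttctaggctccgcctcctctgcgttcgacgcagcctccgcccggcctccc

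CLSPN held 3 CCAAT matches and FANCM 2, while RAD51D and FANCB held none. Promoter entries were matched for 34 members; those without one were FANCI, NBN, RAD54B and RMI2. A CCAAT match on either strand stood before at least 1 start of 17 of the 34 (50%), compared with 37.0% of the 27305 genes of the promoter table. It stood in 12 of the 18 matched members that rose, in 1 of the 8 that fell (BRCA1) and in 4 of the 8 that did not pass the threshold. Over all tested genes with a promoter entry under their symbol, it stood in 43.6% of 4904 that rose, 39.9% of 4253 that fell and 39.5% of 2251 that did not pass, and the members' split was not tested. The E2F motif was searched as TTTGGCGC, TTTGCCGC, TTTCGCGC and TTTCCCGC on both strands, and stood in 4 of the 34 members against 3.40% of all genes of the table. The 4 were FANCA, PMS2 and RMI1, which rose, and FANCC, which did not pass the threshold; PMS2 fell below 0 with library size alone. The cell cycle homology region, searched as TTTGAA and TTCGAA on both strands, stood in 4 of the 34 members against 17.2% of all genes. BRCA2, at 2.39-fold higher, had none of the 3 motifs before its start, and XRCC3, with 5 CCAAT matches, changed little. A match is a description of these letters and not a bound site.

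Within the BRCA1 to BRCA2 axis, the genes moved apart. BRCA2, whose protein loads the recombinase onto resected DNA (chromosome 13, 32315474 to 32400266, plus strand), was 29.2 and 29.7 CPM in the KO libraries, against 13.5 and 11.3 CPM in the control libraries. Both KO libraries stood far above both control libraries, a 2.39-fold rise (log2 fold change 1.26, SE 0.08, adjusted p = 3.68e-14). BRCA1, a ubiquitin ligase that promotes resection and recruits PALB2, was 70.0 and 73.8 CPM in the KO libraries, against 88.2 and 84.2 CPM in the control libraries, a fall with no overlap (log2 fold change -0.26, SE 0.04, adjusted p = 2.84e-06). Its obligate partner BARD1 rose slightly, at 32.0 and 34.9 CPM in the KO libraries against 28.0 and 27.3 CPM in the controls (log2 fold change 0.28, SE 0.06, adjusted p = 3.22e-04), but was -0.0044 with library size alone.

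The bridging protein gene PALB2 was 32.0 and 30.2 CPM in the KO libraries, against 35.9 and 32.4 CPM in the control libraries, and did not pass the threshold (adjusted p = 0.0607). It was called lower with upper-quartile factors, with library size alone, with the stricter filter, with thinned KO counts and without control replicate 2. BRIP1, a helicase that binds BRCA1, rose to 9.94 and 12.2 CPM in the KO libraries, against 7.30 and 6.85 CPM in the control libraries (1.57-fold, adjusted p = 4.12e-05). AC060780.1, a long non-coding RNA gene that shares 120 exonic bases with BRCA1 on the same strand, was 19.7 ± 0.159 CPM in KO and 84.8 ± 1.09 CPM in control (SD, n = 2), and how reads in the shared bases were divided was not tested.

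The paralogs of the recombinase form small complexes that help it assemble on single-stranded DNA. RAD51D had the largest fall of all 38 members. It stood at 32.1 and 32.0 CPM in the KO libraries, against 61.0 and 63.6 CPM in the control libraries, with no overlap (log2 fold change -0.96, SE 0.05, adjusted p = 4.60e-16). RAD51B (4.73 and 4.93 CPM in KO, 6.52 and 6.94 CPM in control) and XRCC2 (40.3 and 40.4 CPM in KO, 49.4 and 47.2 CPM in control) fell too (adjusted p = 0.00419 and 5.74e-05), although RAD51B was not called by DESeq2 (adjusted p = 0.0606). These 3 paralogs sit together in the BCDX2 complex, whose remaining member is RAD51C.

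RAD51C went the other way, at 17 and 15.4 CPM in the KO libraries against 8.85 and 9.28 CPM in the controls (log2 fold change 0.83, SE 0.10, adjusted p = 2.73e-08). XRCC3, its partner in the CX3 complex, was 25.4 and 27.1 CPM in KO and 23.0 and 23.4 CPM in control (log2 fold change 0.17, adjusted p = 0.0230), a call lost under 9 of 15 alternatives and turned to -0.11 with library size alone. KLC1 on the opposite strand overlaps 76.7% of XRCC3's exons and was 146 ± 2.78 CPM in KO and 142 ± 0.55 CPM in control, and the strand setting of the counting is not given in the sources used here. LRRC41 likewise overlaps 25.1% of RAD54L's exons and ZNF276 23.6% of FANCA's on the opposite strand. VRK2 overlaps 18.7% of FANCL's exons and FBXO11 16.2% of MSH6's, again on the opposite strand. Small changes of these members, or a lack of change, are therefore uncertain.

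RAD54L and RAD54B are DNA translocases that act with the recombinase filament. RAD54B (chromosome 8) was 15.3 and 16.1 CPM in the KO libraries, against 10.8 and 6.53 CPM in the control libraries, so its control libraries stood apart from each other. Its log2 fold change was 0.87 (SE 0.19, adjusted p = 0.00303), and it was 0.53 without control replicate 2 and 1.26, past 2-fold, without control replicate 1. FSBP, which shares 59.1% of RAD54B's exons on the same strand, had 23 and 38 counts in the KO libraries against 2 and 32 in the control libraries. RAD54L was 12.7 and 11.9 CPM in KO and 10.8 and 11 CPM in control and did not pass the threshold (adjusted p = 0.138).

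Genes of break sensing and of the BLM complex rose or did not pass. RAD50, the ATPase of the MRN complex, was 217 and 228 CPM in the KO libraries, against 161 and 154 CPM in the controls (log2 fold change 0.50, SE 0.03, adjusted p = 9.96e-14). AC116366.3, annotated over 79.7% of RAD50's exons on the same strand, was 11.6 ± 1.84 CPM in KO and 11.2 ± 0.984 CPM in control. NBN, the MRN subunit that recruits ATM (chromosome 8), was 137 and 147 CPM in KO, against 88.2 and 81.1 CPM in control (log2 fold change 0.75, SE 0.04, adjusted p = 1.87e-12). In both genes the KO libraries lay above the control libraries.

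EXO1, a resection exonuclease, was 28.8 and 28.6 CPM in the KO libraries and 28.9 and 27.5 CPM in the control libraries, and the groups overlapped. BLM, the helicase that dissolves double Holliday junctions, was 24.4 and 27.9 CPM in KO and 27.7 and 22.7 CPM in control, again with overlap. Its 2 cofactor genes rose. RMI1 was 22.2 and 23.7 CPM in KO against 15.4 and 16.0 CPM in control (adjusted p = 4.81e-07). RMI2 was 15 and 15.8 CPM in KO against 11.6 and 10.0 CPM in control (adjusted p = 5.06e-05). Neither EXO1 (log2 fold change 0.02, SE 0.06, adjusted p = 0.733) nor BLM (0.06, SE 0.09, adjusted p = 0.537) passed the threshold. Both signs turned with upper-quartile factors. With library size alone both were called lower, EXO1 at -0.26 (adjusted p = 6.97e-04) and BLM at -0.22 (adjusted p = 0.0361). BLM was 0.20 without control replicate 1 and -0.10 without control replicate 2.

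The Fanconi core complex, which attaches ubiquitin to FANCD2 and FANCI, had 3 of 8 genes higher (37.5%), 2 lower (25%) and 3 not past the threshold, near or below the 36.4% and 39.8% of all tested genes. FANCM, the translocase that anchors the complex to stalled forks (chromosome 14, 45135940 to 45200890, plus strand), was 33.1 and 33.2 CPM in the KO libraries, against 12.2 and 12.8 CPM in the control libraries. That 2.65-fold difference (log2 fold change 1.41, SE 0.07, adjusted p = 3.40e-16) was far larger than the spread within either group. FANCA and FANCF, a scaffold and an adaptor of the complex, rose less. FANCA was 38.4 and 35.5 CPM in KO against 26.7 and 24.2 CPM in control (1.46-fold, adjusted p = 2.28e-08), and FANCF was 29.7 and 31.9 CPM in KO against 23.3 and 24.7 CPM in control (1.28-fold, adjusted p = 2.15e-05, and adjusted p = 0.284 with library size alone).

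FANCB, on the X chromosome, belongs with FANCL to the catalytic module of the complex. It was 5.98 and 6.69 CPM in the KO libraries, against 11.4 and 12.2 CPM in the controls (log2 fold change -0.90, SE 0.12, adjusted p = 1.78e-07). FANCG, which binds FANCA, was 23.6 and 25.1 CPM in KO against 32.0 and 35.4 CPM in control (log2 fold change -0.47, SE 0.07, adjusted p = 3.21e-07), so these interacting products had transcripts that moved in opposite directions. FANCL, the ubiquitin ligase, was 9.97 and 9.58 CPM in KO and 9.62 and 9.28 CPM in control, with overlap (adjusted p = 0.703). FANCC (15.9 and 15 CPM in KO, 15.9 and 19.1 CPM in control) and FANCE (12.3 and 12.6 CPM in KO, 13.9 and 14.7 CPM in control) had adjusted p = 0.0656 and 0.0573. Both were called lower with upper-quartile factors, the stricter filter and library size alone. Without control replicate 1 their log2 fold changes were -0.31 and -0.25.

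Of the substrate pair, FANCD2 fell, while FANCI rose slightly by TMM scaling and stood at -0.13 with library size alone. FANCD2 was 47.1 and 46.7 CPM in the KO libraries, against 73.9 and 70.6 CPM in the controls (log2 fold change -0.62, SE 0.05, adjusted p = 7.65e-13). FANCI was 83.6 and 80.4 CPM in KO and 77.4 and 70.7 CPM in control (log2 fold change 0.15, adjusted p = 0.00315), a rise no longer called with upper-quartile factors, the stricter filter, thinned KO counts or without control replicate 2. UBE2T, the ubiquitin-conjugating enzyme of the pathway, was 30.1 and 26.3 CPM in KO, against 20.3 and 21.9 CPM in control (1.33-fold, adjusted p = 2.26e-05; adjusted p = 0.118 with library size alone).

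The 2 mismatch repair members changed little. MSH6, a mismatch recognition subunit, was 119 CPM in each of the KO libraries, against 111 and 108 CPM in the controls (log2 fold change 0.12, adjusted p = 0.00271), and was -0.01 with upper-quartile factors and -0.16 with library size alone. PMS2, the endonuclease subunit, was 18.6 and 17.2 CPM in KO, against 15.3 and 15.6 CPM in control (log2 fold change 0.21, adjusted p = 0.0260), a call lost under 9 of 15 alternatives and turned to -0.07 with library size alone. PMS2 has pseudogene copies that can share its reads. Of these, PMS2CL was 6.5 ± 0.0372 CPM in KO and 11.4 ± 0.468 CPM in control, and PMS2P1 9.45 ± 0.202 CPM in KO and 20.6 ± 0.407 CPM in control (SD, n = 2). Both pseudogenes were lower in the KO libraries, and the split of reads among the copies was not tested.

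Among the checkpoint genes, those of the ATR arm rose except TOPBP1, and CLSPN rose most. ATR, the kinase activated by single-stranded DNA at stalled forks, was 153 and 159 CPM in the KO libraries, against 86.5 and 87.7 CPM in the controls (log2 fold change 0.84, SE 0.04, adjusted p = 2.69e-18). CHEK1, the kinase it activates, was 99.3 and 101 CPM in KO, against 64.2 and 67.3 CPM in control (log2 fold change 0.60, SE 0.04, adjusted p = 8.38e-14). STT3A, which shares 80 exonic bases with CHEK1 on the same strand, was 941 ± 1.77 CPM in KO and 538 ± 11.1 CPM in control, and how reads there were divided was not tested. CLSPN encodes claspin, the adaptor that brings CHEK1 to ATR (chromosome 1, 35720218 to 35769967, minus strand).

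CLSPN had the largest rise of the 38 members, 40.8 CPM in each of the KO libraries against 14.5 and 11.8 CPM in the control libraries. The 3.12-fold difference (log2 fold change 1.64, SE 0.08, adjusted p = 4.13e-17) put it above 97.1% of all tested genes. TOPBP1, the activator of ATR, fell to 120 and 117 CPM in KO, against 154 and 150 CPM in control (log2 fold change -0.36, SE 0.03, adjusted p = 9.68e-11). ATM, the kinase activated at double-strand breaks, was 404 and 417 CPM in KO and 393 and 374 CPM in control (log2 fold change 0.10, SE 0.03, adjusted p = 0.00285). Its sign turned with upper-quartile factors (-0.04) and with library size alone (-0.18). CHEK2, the target of ATM, was 17 and 15.3 CPM in KO and 18.8 and 17.9 CPM in control (adjusted p = 0.0547). It was called lower under 5 alternatives, upper-quartile factors, the stricter filter, thinned KO counts, library size alone and without control replicate 2.

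PARP1, the sensor of DNA breaks that PARP inhibitors target, was 428 and 433 CPM in the KO libraries, against 292 and 290 CPM in the control libraries. It rose 1.48-fold with no overlap (log2 fold change 0.57, SE 0.03, adjusted p = 2.40e-17). Per kilobase of longest annotated transcript, PARP1 had the highest level of the 38 in both groups, 109 CPM per kb in KO and 73.5 CPM per kb in control. ATM came next in both, at 31.2 CPM per kb in KO and 29.2 CPM per kb in control. On this scale CLSPN stood in place 15 of 38 in KO and place 34 in control, and RAD51D in place 34 in KO and place 20 in control.

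Ratios of counts between partner genes do not depend on the scaling of the libraries, because both genes share it. Of 16 pairs that act in 1 complex or step, 15 had ratios that did not overlap between the groups, against 87.2% of all 703 pairs of the 38 genes, so a lack of overlap is common here. With 2 libraries a group these are given as descriptions, with no test. CLSPN over TOPBP1 was 0.345 ± 0.00705 in the KO and 0.0865 ± 0.0111 in the control libraries (SD, n = 2), the widest shift. PALB2 over BRCA2 was 1.05 ± 0.0565 in KO and 2.76 ± 0.138 in control.

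FANCD2 over FANCI, whose products form a clamp of 1 copy each, was 0.572 ± 0.0126 in KO and 0.977 ± 0.0303 in control. BRCA1 over BARD1 was 2.15 ± 0.0507 in KO and 3.11 ± 0.0447 in control. ATR over ATM was 0.380 ± 0.00288 in KO and 0.227 ± 0.0102 in control. FANCA over FANCG was 1.52 ± 0.153 in KO and 0.759 ± 0.107 in control. Only RMI1 over RMI2 overlapped, at 1.48 and 1.5 in KO and 1.32 and 1.59 in control.

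**Figure D3:**
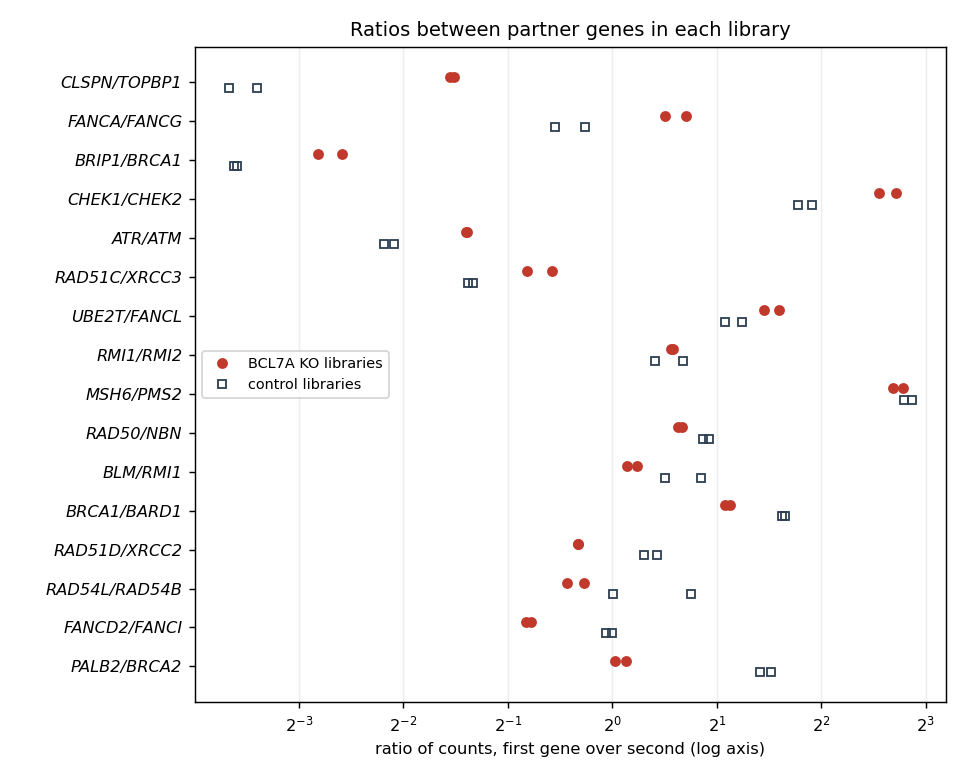
Ratio of counts between partner genes in each library, on a log axis, ordered by the shift between groups; filled circles are the BCL7A KO libraries and open squares the control libraries. Pairs at the top, led by CLSPN/TOPBP1, had higher ratios in KO, pairs at the bottom, led by PALB2/BRCA2, lower ratios, and RMI1/RMI2 overlapped.

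Each member was also set beside the 40 nearest tested protein-coding genes. The members' log2 fold changes exceeded the neighbours' median in 21 of 38 cases, with a median difference of 0.12, and that of the rest of their chromosome in 26 of 38. The 3 largest rises stood well above their surroundings. The neighbours of CLSPN had a median of 0.33, those of FANCM -0.16 and those of BRCA2 0.09. RAD51D and FANCB fell among neighbours with medians of -0.03 and 0.19.

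The neighbours' medians furthest from 0 were those of XRCC2, RAD50, RAD54L and RAD51C. The neighbours of RAD50 on chromosome 5 had a median of 0.75, with 34 of 40 above 0, and those of RAD51C on chromosome 17 a median of 0.64, with 32 of 40 above 0. XRCC2 on chromosome 7 stood at -0.26 among neighbours with a median of -1.10, of which 9 of 40 were above 0, so it was less reduced than they were. RAD54L stood at 0.17 among neighbours at 0.68.

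**Figure D4:**
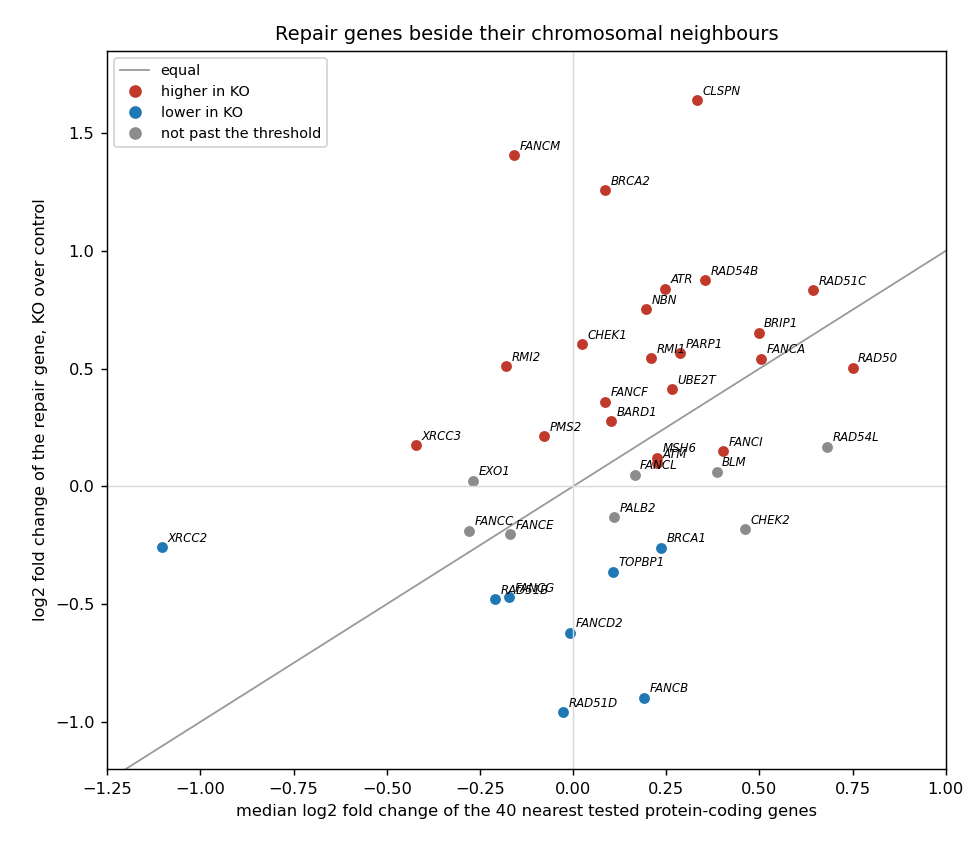
Log2 fold change of each repair gene, KO over control, against the median of its 40 nearest tested protein-coding genes; the diagonal marks equality and colours give the call. CLSPN, FANCM and BRCA2 lie far above the diagonal, FANCB, RAD51D, CHEK2 and FANCD2 far below it, and XRCC2 lies at the far left, with neighbours at -1.10.

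Repair genes outside the 38 also rose and fell side by side, and from each list the 3 with the smallest p are named. For comparison with each list, 36.4% of all tested genes rose and 39.8% fell. Of tested genes with at least 10 CPM, 54.2% rose and 31.7% fell. Of 33 other recombination and Fanconi genes, 19 rose (57.6%) and 8 fell (24.2%), and the median log2 fold change was 0.27. The ubiquitin ligase gene RFWD3 was 130 ± 3.60 CPM in KO and 56.0 ± 0.222 CPM in control (SD, n = 2). The helicase gene MCM8 fell to 15.6 ± 0.812 CPM in KO, against 39.9 ± 2.91 CPM in control, and BRCC3, a deubiquitinase gene of the BRCA1-A complex, rose 1.77-fold. Among 18 other checkpoint genes 10 rose (55.6%) and 5 fell (27.8%), with a median of 0.25. There the phosphatase gene CDC25B and the clamp loader gene RAD17 had log2 fold changes of 1.01 and 0.76, and the ubiquitin ligase gene RNF168 -0.95. The medians of both lists turned negative with library size alone (-0.0090 and -0.035).

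End joining, which rejoins breaks without a template, had 8 of 15 tested genes higher (53.3%) and 3 lower (20%). Its median was 0.21, and -0.07 with library size alone. The kinase gene PRKDC was 1336 ± 14.7 CPM in KO and 867 ± 27.5 CPM in control, and XRCC5 and XRCC6, which encode the Ku dimer, rose 1.57-fold and 1.52-fold. In base excision and single-strand break repair 10 of 21 rose (47.6%) and 5 fell (23.8%). The median there was 0.16, and -0.12 with library size alone. The glycosylase genes TDG and NEIL2 rose 2.61-fold and 2.37-fold, and the endonuclease gene APEX1 1.61-fold.

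Nucleotide excision repair had 17 of 24 genes higher (70.8%) and 6 lower (25%), with a median of 0.33, and 0.05 with library size alone. DDB2, a sensor of ultraviolet damage, was 75.4 ± 1.59 CPM in KO and 24.9 ± 2.23 CPM in control, and GTF2H2, a subunit of TFIIH with near-identical copies that make its counts uncertain, rose 2.78-fold. The endonuclease gene ERCC5 fell to 23.2 ± 0.226 CPM in KO, against 84.7 ± 7.35 CPM in control. Of 12 translesion and theta-mediated repair genes 6 rose (50%) and 4 fell (33.3%). Their median was 0.28, and -0.0044 with library size alone. HLTF, a fork remodeller gene, rose 4.78-fold, to 89.0 ± 2.49 CPM in KO against 18.6 ± 0.287 CPM in control, UBE2B rose 1.97-fold and POLQ, the polymerase of theta-mediated joining, 1.65-fold. The 3 other mismatch repair genes split, with MSH3 at 2.11-fold higher (log2 fold change 1.08), MLH3 at -1.01 and PMS1 at -0.32.

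Cell cycle genes are given beside the repair genes, and their part in the repair gene changes was not tested. Of 36 S phase genes outside the 38, 25 rose (69.4%) and 6 fell (median log2 fold change 0.44). Of all tested genes 36.4% rose, and of those with at least 10 CPM 54.2%. With library size alone 18 of the 36 rose and 10 fell (median 0.16), where 4493 of all 17885 tested genes rose and 9346 fell. In the S phase list the smallest p were those of RRM2 (3.85-fold), CDT1 (4.38-fold) and MCM6 (2.30-fold). Of 36 G2 and M phase genes, 35 rose (97.2%) and 1 fell (median 1.09). With library size alone 31 of these 36 rose and 3 fell (median 0.81). Their smallest p were those of CCNB1 (7.49-fold), KIF20A (7.08-fold) and CDC20 (6.43-fold) in the main fit. The summed level of the S phase list was 3005 and 3002 CPM in the KO libraries, against 2157 and 2175 CPM in the control libraries. For the G2 and M list it was 4883 and 4949 CPM in KO, against 2530 and 2462 CPM in control. In bulk libraries, more cells in a cycle phase and more RNA per cell cannot be told apart.

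**Figure D5:**
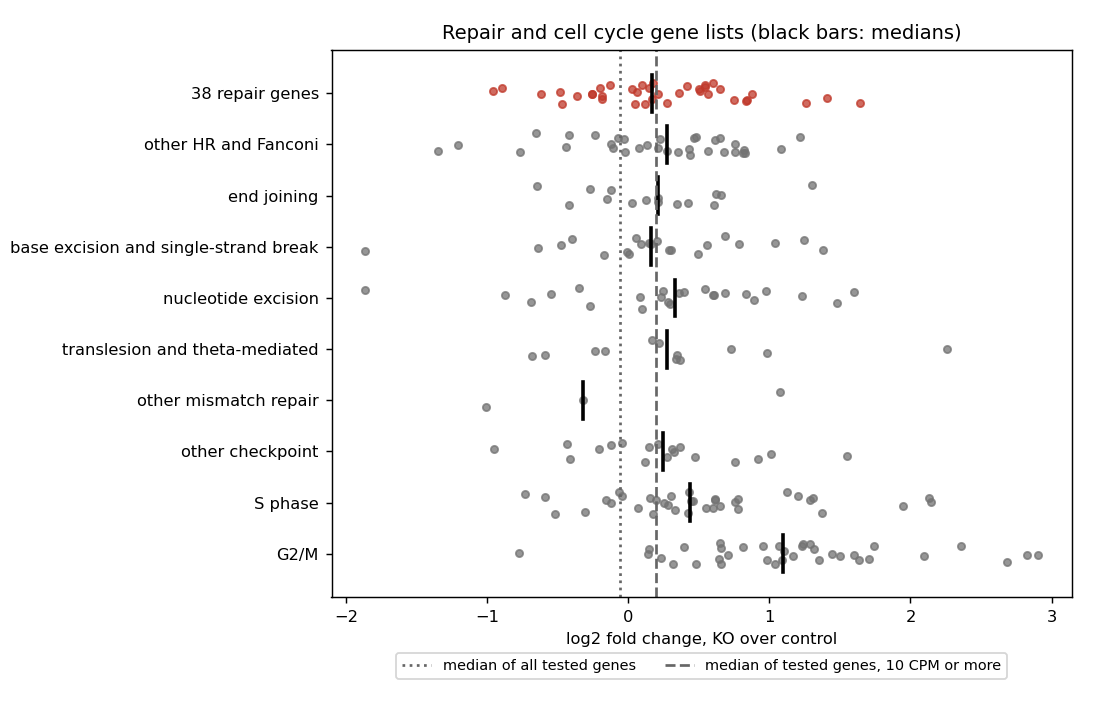
Log2 fold change, KO over control, of every tested gene in the 38 repair genes (red), 7 lists of other repair genes and 2 cell cycle lists (grey), with each list's median as a black bar. Except for the 3 other mismatch repair genes, at -0.32, the repair lists centre near the dashed line for tested genes with at least 10 CPM, at 0.19, with library size alone moving all points 0.28 to the left and several repair medians below 0, while the G2 and M list centres at 1.09.

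The KO libraries held 38671744 and 40799624 gene counts, against 17567202 and 20153596 for the controls, a gap in depth that runs with the group. With KO counts thinned to the control depth, 17 repair genes rose and 10 fell. In that fit 5886 of all 16513 tested genes rose and 6609 fell. Every member had at least 126 counts in every library. BCL7A was 1.31 and 1.19 CPM in the KO libraries, against 42.9 and 45.7 CPM in the control libraries. All 9 plasma cell markers had at least 1 CPM in both groups, with summed levels of 11953 to 11965 CPM in KO and 6697 to 6757 CPM in control. The 8 mature B cell markers summed to 33.2 to 36.1 CPM in KO and 449 to 461 CPM in control, although the labels call the cells B lymphocytes; CD22 and MS4A1 had at most 23 counts in any library. Some markers, named after their values were seen, were close to absent in the KO libraries alone. CD79A had 4 and 8 counts in KO against 1602 and 1913 in control, PAX5 10 and 11 in KO against 429 and 495 in control, CD74 41 and 61 in KO against 5081 and 5968 in control, and the epithelial marker EPCAM 0 in both KO libraries against 993 and 1207 in control. CD79B went the other way, at 29.9 and 32.3 CPM in KO against 16.5 and 20.6 CPM in control. So did the epithelial marker KRT18, at 6.27 and 6.71 CPM in KO against 2.69 and 1.17 CPM in control. Also in the epithelial list, KRT8 was lower, with means of 1.35 CPM in KO and 9.56 CPM in control. CDH1 had means of 4.46 CPM in KO and 4.13 CPM in control. Whether the KO cells were a separate clone or culture is not stated in the labels, and an effect of BCL7A loss and a difference between cell populations cannot be told apart. The T cell list (6 genes) summed to 14.9 to 15.2 CPM in KO and 29.7 to 30.5 CPM in control. Most of that was CD3E, with means of 13.9 CPM in KO and 23.9 CPM in control, and CD3D was 0 in all libraries. The myeloid list (7 genes, MPO at 0) summed to 57.0 to 58.7 CPM in KO and 27.3 to 31.0 CPM in control. Nearly all of that was CD68, at 57.8 and 56.3 CPM in KO against 26.0 and 29.4 CPM in control. Of the 3 myeloid markers tested, 2 rose and 1 fell (ITGAM). Erythroid markers (4 genes) summed to at most 0.513 CPM in KO and 4.42 CPM in control, epithelial markers (5 genes, KRT19 at 0) to 12 to 12.6 CPM in KO and 66.1 to 70.9 CPM in control, and fibroblast markers (5 genes, LUM at 0) to at most 0.399 CPM in KO and 10.9 CPM in control. The part of these marker differences in the repair gene changes was not tested.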

How the data were processed

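Poly(A) RNA of 2 BCL7A KO and 2 control libraries was measured. The deposited values are estimated counts per gene, which the authors obtained from Salmon 0.12, and the build was GRCh38, as the submitters' processing notes state. Index, annotation and strand setting: not given in the sources used here, although the library kit is stranded per the labels' protocols. Estimated counts divide reads among similar transcripts, so genes that share sequence are less certain. All deposited values were whole numbers. The 38 members and the other lists were chosen with earlier results of these data known.

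Genes were filtered with filterByExpr, scaled with TMM and tested in edgeR 4.0.16 (R 4.3.3) with the quasi-likelihood test. Each adjusted p is Benjamini-Hochberg over all 17885 genes tested, with a threshold of 0.05, and each SE is the absolute log2 fold change over the square root of F. No list was tested. Named are all members, BCL7A and, from each other list, the 3 tested genes with the smallest p. AC060780.1, the other overlapping rows, the PMS2 pseudogenes and the neighbours' medians were added to show what shares reads or position with a member. Gene positions are from GENCODE release 29 on GRCh38 and promoters from RefSeq on GRCh38.p14.

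Alternatives were upper-quartile or RLE factors, dropping the filter, a stricter filter (a mean count of 10 and 1 CPM in 2 libraries), DESeq2 1.42.0, limma-voom (limma 3.58.1), no robust shrinkage, a replicate block, each library left out, KO counts thinned to the control depth, and an adjusted p under 0.01. Library size without factors was added after seeing the data. The edgeR script was tested on simulated data in which few genes changed, evenly in both directions. That test does not cover scaling where most genes differ between the groups, as here. Every sample column of the table was used.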

Additional observations from a re-analysis of the deposited data

How the results depend on the processing

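Of 38 members, 21 kept their direction and call under all 15 alternatives, and of 570 member values 500 did, while 29 lost the call, 20 gained it and 21 reversed. With library size alone, added after seeing the data, 14 members rose and 17 fell, where 4493 of all 17885 tested genes rose and 9346 fell. In that setting 2 members were at least 2-fold lower, and the members' median was -0.11. The reversals under that setting were BARD1 (-0.0044), XRCC3 (-0.11), RAD54L (-0.11), EXO1 (-0.26), BLM (-0.22), FANCL (-0.23), FANCI (-0.13), MSH6 (-0.16), PMS2 (-0.067) and ATM (-0.18), and list medians turned to -0.0090 (other recombination and Fanconi), -0.069 (end joining), -0.12 (base excision), -0.0044 (translesion) and -0.035 (other checkpoint). A change of scaling shifts all genes alike, and in these libraries both this setting and upper-quartile factors shifted them downward. Upper-quartile factors reversed EXO1 (-0.11), BLM (-0.071), FANCL (-0.085), MSH6 (-0.013) and ATM (-0.036), gave a median of 0.038 and left 2 members at least 2-fold lower. The stricter filter gave a median of 0.11, 1 member at least 2-fold lower, EXO1 at -0.034 and FANCL at -0.0092. Thinned KO counts gave a median of 0.11, 1 member at least 2-fold lower and BLM at -0.056, and no filter gave a median of 0.26. Relative to the main fit, the median gene moved by -0.058 with the stricter filter, -0.039 with thinned counts and 0.083 with no filter. The cause was not tested.

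With 1 library left out in turn, the lone library was assumed to vary like the other group. Counts were 18 to 21 higher and 8 to 10 lower, 3 to 4 at least 2-fold higher and 0 at least 2-fold lower, and medians 0.17 to 0.21. EXO1 ran from -0.028 (without control replicate 2) to 0.057 and BLM from -0.10 to 0.20 across these. Against the 40 nearest genes instead of the chromosome, 7 differences reversed, to -0.51 for RAD54L, -0.25 for RAD50, 0.29 for EXO1, -0.32 for BLM, -0.25 for FANCI, -0.11 for MSH6 and -0.13 for ATM. The replicate block gave 22 members higher and 8 lower, with 3 and 0 at least 2-fold and a median of 0.17. Of all 17885 tested genes it gave 6365 higher and 6922 lower. Same-numbered libraries did not deviate together (r = -0.0089 across 17885 genes, which are not independent replicates). With 2 libraries a group this correlation cannot decide whether they shared a culture or day, and the labels do not say. Depth was at least 126 counts for every member.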
